A study of Mus musculus with 18 samples.

Results

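Floxed control mouse oocytes were compared before and after meiotic maturation, from the germinal vesicle (GV) stage to metaphase II (MII). The libraries were selected by their labels alone: 3 control GV and 3 control MII libraries, 6 of the 18 samples of the series. All of them came from 5-week-old females labelled Vps34 floxed/floxed, in which both copies of Pik3c3, the gene for the lipid kinase VPS34, carry loxP sites and no Cre is named. GV oocytes were taken 46 h after PMSG, which makes follicles grow, and MII oocytes 14 h after hCG, which brings on ovulation. A library held 5 oocytes, to which ERCC control RNAs were added, and was amplified by Smart-seq2. Another 6 GV and MII libraries came from oocytes that also carried Zp3-Cre, which is active in growing oocytes (cKO); they shared the estimate of the spread and served as a second set of libraries. Embryo samples were not used here.

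A fully grown GV oocyte is arrested in meiotic prophase with a large store of messenger RNA and a genome that is almost silent. When the follicle is triggered to ovulate, the nuclear envelope breaks down, the spindle forms, a polar body is extruded and the egg arrests again at MII, all largely without new transcription. On the way some stored messages receive longer poly(A) tails and are translated, while many others lose their tails and are degraded by the CCR4-NOT deadenylase, which BTG4 and ZFP36L2 bring to its targets. Smart-seq2 starts its copies at the poly(A) tail, so that a message that was degraded and one that only lost its tail cannot be told apart in these counts. Likewise, among messages that were higher or kept, the counts cannot tell amount from tail length.

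A U-rich element near the 3′ end, the cytoplasmic polyadenylation element, is the best known mark of messages whose tails are lengthened in maturing oocytes. It is spelled here as TTTTAT or TTTTAAT on the sense strand. It was present about 3 times as often in transcripts that were higher at MII as in those that were lower, as given further on, so examples are printed first, with the element in capitals. All windows lie in the last exon, within the final 100 bases of the annotated 3′ UTR (GENCODE vM21, GRCm38, the assembly called mm10), and are written 5′ to 3′ on the strand of the gene. The first 6 belong to transcripts that were higher at MII relative to gene totals. They are examples only: among higher genes with a 3′ UTR of at least 100 bases, 30.9% held the element. Others that were higher, such as Paip1, Ccnb1 and Slbp, held neither spelling in those bases.
Btg4 (chr9:51119797-51119826, plus strand): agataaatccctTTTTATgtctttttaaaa
Cnot7 (chr8:40493038-40493067, minus strand): tcttaaggtacaTTTTATatcaataaaaat
Spin1 (chr13:51152473-51152502, plus strand): tctgtaagtaatTTTTATaattatgatgta
Tcl1 (chr12:105216797-105216826, minus strand): gaatgtgtgggaTTTTATgtggttctattt
Bub1b (chr2:118641553-118641582, plus strand): tttcactgtgtaTTTTATaataaaatagtt
Gtf2a1 (chr12:91555262-91555291, minus strand): ataataaagataTTTTATttattgccagca
The next 4 belong to transcripts that were much lower at MII and hold neither spelling in the same 100 bases. Here the capitals mark the letters AATAAA, the spelling of the signal for cutting and first polyadenylation of the pre-mRNA. That signal is not particular to lower genes: it was in 59.0% of them and in 73.4% of higher genes.
Cdk1 (chr10:69335156-69335185, minus strand): ctaatggcacggAATAAAaggattattcac
Khdc3 (chr9:73104409-73104438, plus strand): ttaaagtattctAATAAAaaaaaaattgca
Psmb7 (chr2:38588043-38588072, minus strand): tcaattaaaataAATAAAtaaaaagacaaa
Ldhb (chr6:142490255-142490284, minus strand): agctcctgatcaAATAAAgttagcaattgc
The last 2 do not follow that division. Rpl5 holds the element and was much lower, and Gdf9 holds it and passed no threshold on the relative scale.
Rpl5 (chr5:107908968-107908997, plus strand): ttaactgaactTTTTAATaaatgagtcatt
Gdf9 (chr11:53437854-53437883, plus strand): agagtgctgtggTTTTATgtgacggaagaa

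The 6 libraries held between 2956881 and 4696626 gene counts, which were close between stages (GV mean 3814000 ± 870000 SD, MII mean 3554000 ± 209000 SD, n = 3 each). The number of genes at 1 CPM (a gene's count scaled to a fixed gene total) or more was 13640 ± 204 (SD) at GV and 12170 ± 226 at MII. Libraries of 1 stage correlated at 0.957 to 0.979 (Pearson, log2 CPM, across genes) and differed by more than sampling noise, with 5.48 to 21.3 chi-square units per degree of freedom. All 11 oocyte markers were detected in all 6 libraries. No label ties libraries to animals, so p-values measure only the spread between these libraries.

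The summed ERCC count rose while the gene count did not. In GV libraries there were 4.353, 7.006 and 8.695 gene counts per ERCC count, and in MII libraries 1.849, 2.31 and 2.418. The stages did not overlap, and the mean log2 ratio was lower by 1.56 at MII (-1.561, exact permutation test, two-sided, p = 0.1, the smallest that 3 against 3 libraries can give). The GV libraries spread more widely than the MII libraries (SD 2.19 against 0.302). The size of the fall depended on which spike-ins were counted: of 56 ERCC RNAs present in every library, the 11 with over 10000 mean counts rose by a median of 1.7 on the log2 scale (1.1 to 2.06), and the 20 with 100 to 1000 mean counts by 2.56 (1.97 to 3.02). The 5 most abundant ERCC RNAs made up most of the sum, the first of them 26.2%. With the median ratio over ERCC RNAs in place of the sum, a setting added for this ratio after the data were seen, the log2 difference was -2.444. Most genes had counts like those of the less abundant spike-ins (median gene 72 mean counts, 10968 of 11607 tested genes under 1000), and the reason for the uneven rise was not tested.

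**Figure D1:**
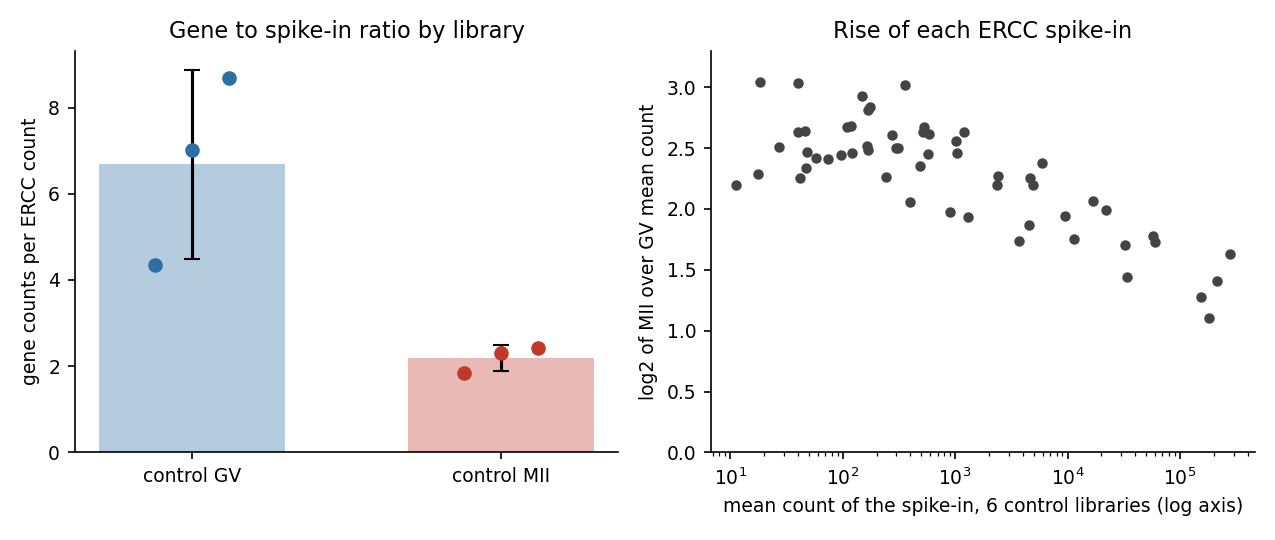
Left, gene counts per ERCC count in each control library (points), with the mean (bar) and SD (line) of 3 libraries per stage: all MII libraries, at 1.849 to 2.418, lie below all GV libraries, at 4.353 to 8.695. Right, the log2 rise of each of 56 ERCC spike-ins from the GV to the MII mean count against its mean count (log axis): abundant spike-ins rose less, with a median of 1.7 above 10000 counts.

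Relative to gene totals, the maturing transcriptome was redistributed in both directions. Of 11607 genes tested, 7418 (63.9%) passed the threshold (adjusted p under 0.05 in edgeR's quasi-likelihood test with TMM scaling): 3490 (30.1%) were higher and 3928 (33.8%) lower at MII. The libraries of the 2 stages did not overlap for 67.3% of the genes. The downward changes were larger: the 5th percentile of all log2 changes was -3.57 and the 95th 1.62, around a median of 0.0056, with a median SE of 0.311. The 3490 genes that were higher held 36.4% ± 2.5 (SD) of gene counts at GV and 67.8% ± 2.58 at MII. The 3928 that were lower went from 37.3% ± 0.732 to 9.11% ± 1.03.

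Scaled to the summed ERCC counts, almost every change was a loss. Of the same genes, 8206 (70.7%) passed the threshold, 8141 (70.1%) lower and 65 (0.56%) higher, with a median log2 change of -1.72 and a median SE of 0.492. The median was -2.65 with the ERCC median ratio. Each transcript was then placed against a 2-fold fall, with a one-sided test on each side. Under this rule 4980 genes (42.9%) were lost, meaning that they fell by more than 2-fold. The kept genes numbered 74 (0.638%), meaning that their change lay above a 2-fold fall, and 6553 (56.5%) could not be placed. Of the 74, 41 had under 1 CPM at GV, some with no count there, and so had almost no GV level to keep. Such genes could pass the filter on low counts through their MII counts. The error of the ERCC scaling is shared by all genes in a library, so the genes near a 2-fold fall move across the line together. A 4-fold line in place of 2-fold moves the counts by construction, to 3137 kept and 2796 lost. The count of kept genes also rested on single libraries and on the spike-ins used, with 21 kept without GV replicate 1, 25 without GV replicate 3, 31 without MII replicate 2, 43 without GV replicate 2 and 18 with the ERCC median ratio, under which 7700 genes were lost. All 3928 genes that were lower on the relative scale were lost, and none of the 3490 that were higher was lost. Both scales use the same counts and differ mainly by 1 factor per library, so this order follows largely by construction. Of the 4189 with no relative call, 1052 were lost.

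The fall was graded. Among 7738 genes at 10 CPM or more at GV, the median gene had 30.3% of its ERCC-scaled GV level left at MII. The 25th percentile was 10.4% and the 75th 53.7%. Under 10% remained for 1881 genes (24.3%), over 50% for 2238 (28.9%) and over 100% for 134 (1.73%). These shares rest on the summed ERCC counts and were not computed with the ERCC median ratio. Under that ratio the median log2 change of all genes was -2.65 in place of -1.72. Clearance was rarely complete: 605 of the 7738 were under 10% of their GV CPM at MII, 64 had less than 1% of the ERCC-scaled level, and every one of the 7738 still had a count in at least 1 MII library.

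**Figure D2:**
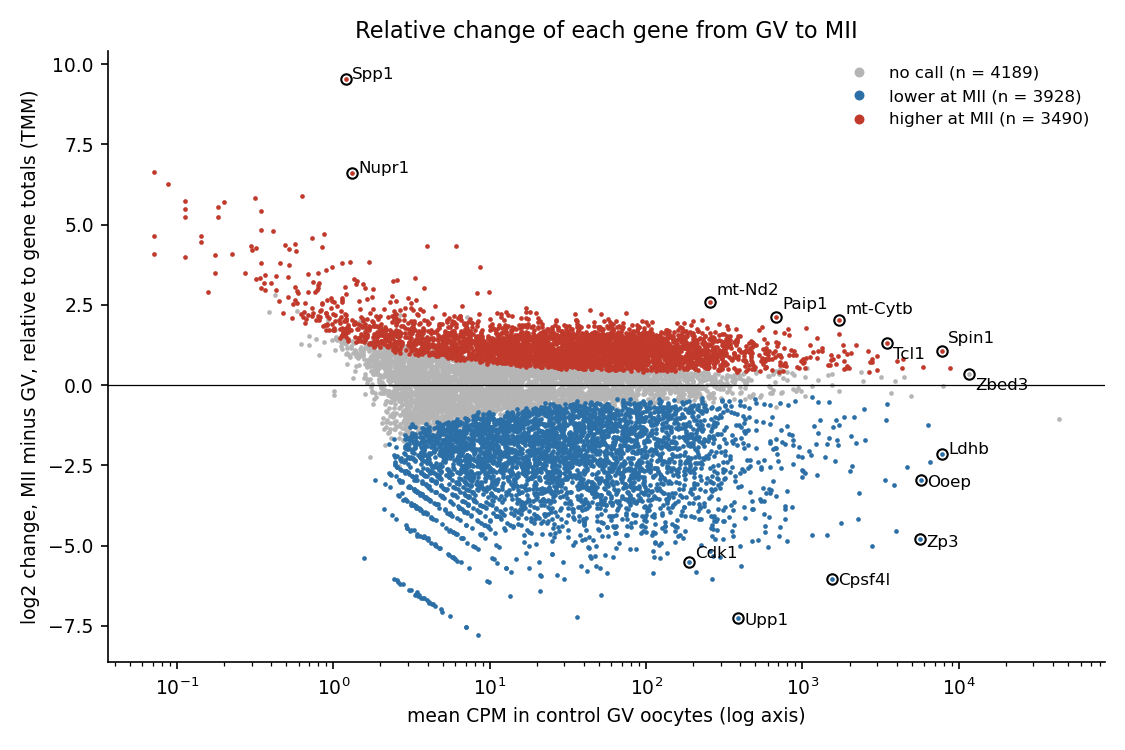
Log2 change from GV to MII relative to gene totals (TMM) against the mean CPM at GV (log axis), 1 point per gene with a count at GV; red, higher (n = 3490), blue, lower (n = 3928), grey, no call (n = 4189); n includes genes with no count at GV. Downward changes reach further than upward ones, except at the left, where a few genes with almost no counts at GV, such as Spp1 and Nupr1, were far higher at MII.

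The transcripts that fell furthest included some of the more abundant ones of the GV oocyte. Upp1, which encodes uridine phosphorylase 1, stood at 449, 357 and 363 CPM at GV and at 0.818, 3.02 and 2.99 CPM at MII. Its relative log2 change was -7.27 ± 0.30 SE, adjusted p = 6.3e-12, and 0.206% of the ERCC-scaled level remained. Cpsf4l went from 1432, 1717 and 1452 CPM to 22.4, 18.4 and 22.5 CPM. The MII libraries lay within a few CPM of each other, far under the GV libraries, for a log2 change of -6.04 ± 0.24 SE. Ckb, the brain form of creatine kinase, went from 264, 322 and 205 CPM to 4.09, 4.83 and 1.9 CPM, a log2 change of -6.05 ± 0.33 SE. Gstt2, a glutathione transferase, Mok, a protein kinase, and Sipa1, a GTPase-activating protein for RAP1, had log2 changes of -6.54, -5.87 and -5.87. Another 3 in this group had only 2 or 3 counts in all MII libraries together. Their GV to MII ratios of CPM were 110.0 (95% counting interval 30.1 to 913) for Iqcf1, 74.2 (95% counting interval 25.1 to 363) for Ldhc, the testis form of lactate dehydrogenase, and 73.1 (95% counting interval 19.9 to 609) for Tysnd1, a peroxisomal protease. Rpl7a also ranked here (-6.05), but ribosomal protein genes have near-identical copies and the handling of shared reads is not given, so that value is uncertain.

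Fgf8 and Figla were also among these deep losses. Fgf8, a growth factor that the oocyte sends to cumulus cells, stood at 176, 247 and 204 CPM at GV and 2.45, 2.41 and 5.16 CPM at MII, a log2 change of -5.81 ± 0.36 SE. Figla, the transcription factor that switches on the zona pellucida genes, went from 44, 49.1 and 33.4 CPM to 0.273, 0.604 and 1.09 CPM (-5.80 ± 0.48 SE). Its targets, the egg coat genes Zp1, Zp2 and Zp3, were also far lower, with log2 changes of -4.31, -4.54 and -4.78. Zp3 stood at 5229.5, 6939 and 4812 CPM at GV and 144, 181 and 240.3 CPM at MII, so that 1.12% of the ERCC-scaled level remained. Of 14 tested genes of the egg coat and surface, 6 were lower, 4 higher and 4 without a call, beside 33.8% lower and 30.1% higher among all genes. The sperm receptor Izumo1r (-3.63) and the fusion tetraspanin Cd9 (-2.73) were among those lower, and the integrins Itgb1 (1.13), Itga6 (1.20) and Itga9 (1.45) among those higher. Of 11 growth factor and receptor genes, 3 were lower, 3 higher and 5 without a call. Gja4, the gap junction protein toward the cumulus cells, was lower (-4.17), and the BMP receptors Bmpr1b (1.17) and Bmpr2 (1.27) were higher.

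Gdf9 and Bmp15, the main growth factors of the oocyte, were not among the strong relative losses. Gdf9 was at 6208, 9505 and 7995 CPM at GV and 9898, 5037 and 5973 CPM at MII. The stages overlapped, and the relative log2 change was -0.02 ± 0.26 SE, with 27.2% of the ERCC-scaled level left. Bmp15 had a relative change of -0.34 ± 0.19 SE (adjusted p = 0.12). Among 18 transcription factor genes, 4 were lower and 8 higher (22.2% and 44.4%, beside 33.8% and 30.1% of all genes). The 4 were Figla, Lhx8 (-2.59), Nobox (-2.56) and Pou5f1 (-0.92); the first 3 direct follicle formation and oocyte growth. The higher ones included the oocyte homeobox genes Obox1, Obox2 and Obox5 (0.62, 0.71 and 0.59), which are near-identical copies of a family and so uncertain one by one, Tbpl2 (0.85), the oocyte's TATA-binding factor, and Sall4 (1.19).

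The subcortical maternal complex, a protein lattice under the egg membrane that the early embryo needs, had 10 of 13 tested genes lower, none higher and 3 without a call, with a median of -1.49 and an ERCC-scaled median of -3.26. Among all genes 33.8% were lower and 30.1% higher. Khdc3 went from 103, 158 and 121 CPM to 5.45, 4.53 and 5.7 CPM, a log2 change of -4.46 ± 0.28 SE. Ooep went from 4349, 7458 and 5309 CPM to 512, 839 and 679 CPM, with no overlap (-2.96 ± 0.33 SE). Tle6 (-3.37), Padi6 (-2.54), Nlrp2 (-1.85) and Nlrp5 (-1.49) were also lower. Zbed3, assigned to the same complex, differed: it was among the most abundant genes of both stages, at 12329.5, 11733 and 10810.5 CPM and 13759.7, 11999.9 and 14151 CPM, with a relative change of 0.34 ± 0.20 SE that did not pass the threshold.

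The lists with the largest shares of lower members encode the translation and respiration machinery. The shares over all genes were 33.8% lower and 30.1% higher. Of 79 cytosolic ribosomal protein genes, 74 were lower and 2 higher, with a median of -2.87. On the ERCC scale 76 of the 79 were lost, beside 42.9% of all genes. Rpl5 went from 874, 956 and 746 CPM to 20.2, 90.6 and 61.6 CPM (-3.80 ± 0.35 SE). Rps27l was among the higher genes (1.01), uncertain like the rest of this family for shared reads. Of 74 mitochondrial ribosomal protein genes, 58 were lower and 6 higher (median -2.16), with Mrps18c (-5.33) and Mrpl3 (1.43) at the ends. Of 76 nuclear genes of oxidative phosphorylation, 68 were lower and 3 higher (median -2.77). Atp5j2, a subunit of ATP synthase, went from 269, 246 and 284 CPM to 2.45, 10.3 and 5.7 CPM, and the 3 that were higher were Sdha (0.51), Uqcrc2 (1.30) and Ndufa10 (1.61). The proteasome had 20 of 33 lower and 6 higher (median -0.995), and the translation initiation and elongation factors 22 of 42 lower and 11 higher (median -0.99). Within the latter, subunits of 1 complex parted: Eif3f, Eif3g, Eif3h and Eif3m had changes of -3.27, -3.51, -3.44 and -3.22, and Eif3e and Eif3i of 0.95 and 1.06.

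The 13 protein-coding genes of the mitochondrial genome went the other way from the nuclear genes of the same respiratory complexes. Of the 13, 12 were higher relative to gene totals and none lower, with a median of 1.69, beside 30.1% higher and 33.8% lower among all genes. mt-Cytb, a subunit of complex III, stood at 1704, 1759 and 1684 CPM at GV and 8381, 6366 and 4065 CPM at MII (2.03 ± 0.31 SE). mt-Nd2, a subunit of complex I, went from 245, 247 and 273 CPM to 1829, 1412 and 930.3 CPM, with no overlap. On the ERCC scale the 13 genes had a median of -0.05, against -1.72 for all genes. Of the 13, mt-Nd2 was the 1 gene called kept, beside 0.638% of all genes. Together they took 0.499% ± 0.0395 (SD) of gene counts at GV and 1.52% ± 0.395 at MII.

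**Figure D3:**
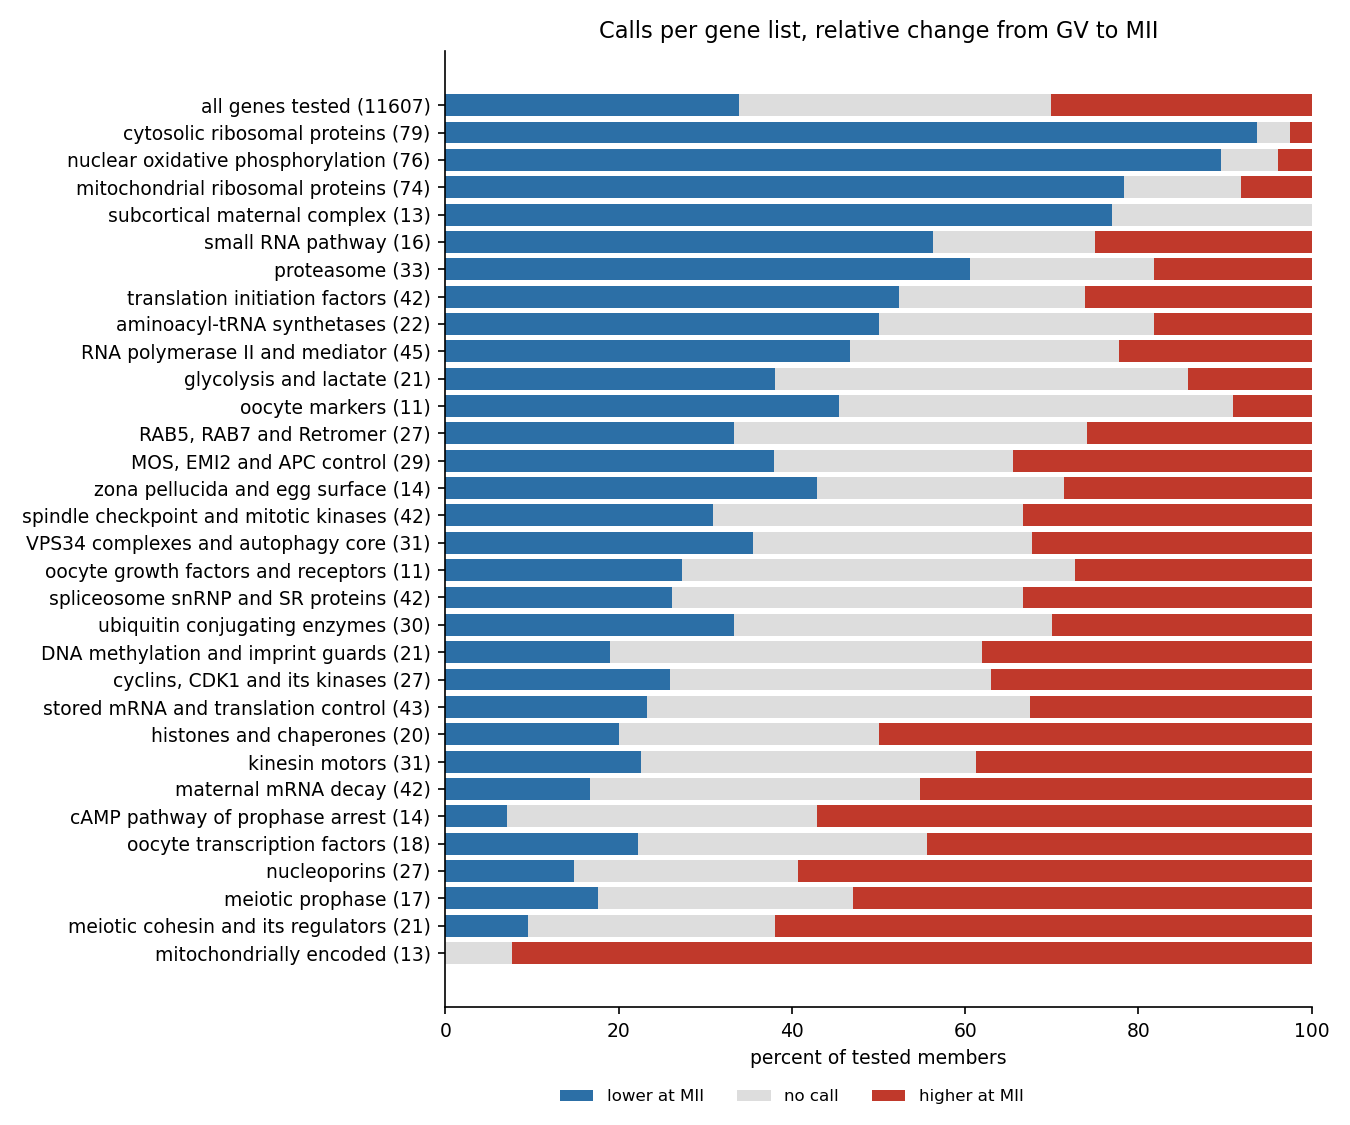
Share of tested members (percent, number tested in brackets) of each gene list with 10 or more tested members, other than the cumulus and granulosa markers, that was lower (blue), higher (red) or without a call (grey) at MII relative to gene totals, ordered by median change below the bar for all 11607 genes. Bars of ribosomal, respiratory and mitochondrial ribosomal proteins are mostly blue and that of mitochondrially encoded genes almost all red.

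Among all genes 30.1% were higher and 33.8% lower, and the lists of the division machinery had like shares: 37.0% and 25.9% for cyclins, CDK1 and its kinases, 34.5% and 37.9% for control of the anaphase-promoting complex, and 33.3% and 31.0% for the spindle and checkpoint. Cdk1, the kinase that drives both meiotic divisions, fell from 174, 196 and 193 CPM to 2.45, 3.92 and 4.89 CPM (-5.50 ± 0.33 SE). Ccnb1, its main cyclin, stood at 1456, 1178 and 1126 CPM at GV and 2449, 2164 and 2414 CPM at MII, higher in every MII library (1.05 ± 0.21 SE), and its ERCC-scaled level at MII was 63% of that at GV, a change of -0.67 ± 0.38 SE with adjusted p = 0.11. Of 27 genes of this list 10 were higher and 7 lower. Ccna2 (1.35), Ccnb2 (0.59) and Ccne2 (1.06) were higher, as were the CDK adaptor Cks1b (1.21) and the inhibitor Cdkn1b (1.16). The phosphatases that activate CDK1, Cdc25b (-2.29) and Cdc25c (-2.11), its inhibitory kinase Wee1 and cyclin D2 (Ccnd2, -5.18) were lower. The oocyte kinase of that kind, Wee2, had 0.42 and no call.

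The anaphase-promoting complex, which destroys cyclin B, and the MOS and EMI2 factors that hold it back at MII had 10 of 29 genes higher and 11 lower. The activator Cdc20 (1.46) and EMI2, encoded by Fbxo43 (1.27), were higher. The other activator, Fzr1, which keeps GV oocytes arrested, was lower (-3.63), and Mos had 0.24 with no call. In the spindle and checkpoint list 14 of 42 were higher and 13 lower. The tubulin genes Tubb4b (-4.67), Tubb5 (-2.21) and Tuba1c (-1.54) were lower, as were the polo kinase Plk1 (-0.75) and Aurka (-0.85). The oocyte's own aurora kinase, Aurkc (1.15), the spindle assembly factor Tpx2 (1.06) and the checkpoint proteins Mad2l1 (1.42) and Bub1b (0.53) were higher. The call of Bub1b was lost without GV replicate 1 (adjusted p = 0.0505) or the filter on low counts (adjusted p = 0.103). Of 31 kinesin genes 12 were higher (38.7%) and 7 lower (22.6%), beside 30.1% and 33.8% of all genes. Kif11, the highest, had 1.01, 3.69 and 0.639 CPM at GV and 4.09, 31.1 and 5.7 CPM at MII. Its relative change of 2.99 was 1.61 without MII replicate 2 (adjusted p = 0.102). Its call was also lost without GV replicate 1 or 3, or without the filter on low counts (adjusted p = 0.101). Its ERCC-scaled change of 1.39 became -0.14 without MII replicate 2.

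Cohesin, the ring that holds sister chromatids together through both divisions, was among the lists with most members higher: 13 of 21, against 2 lower, with a median of 1.02. Over all genes 30.1% were higher and 33.8% lower. The core subunits Smc3 (1.59), Smc1a (0.92) and Smc1b (1.55), the meiotic form of the last, were higher, as were the acetyltransferases Esco1 (1.68) and Esco2 (1.02), the protector Sgo2a (1.48) and the release factor Wapl (1.54). Cdca5, which encodes sororin and locks cohesin on DNA, was lower (-1.29 ± 0.18 SE). On the ERCC scale the list had a median of -0.75, with none called kept and 4 lost. Among all genes the median was -1.72, with 0.638% kept and 42.9% lost. Genes of synapsis and recombination, which oocytes complete before birth, had 9 of 17 higher and 3 lower. The synaptonemal complex genes Sycp1 (1.57), Sycp2 (1.84) and Sycp3 (1.08) were higher, and Syce2 (-2.01), from the central element of the same structure, was lower.

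Components that remove and store messages also parted. Of 42 genes of maternal mRNA decay, 19 were higher and 7 lower (median 0.50). These shares were 45.2% and 16.7%, beside 30.1% and 33.8% of all genes. Btg4, the adaptor that sends messages to the deadenylase, stood at 4040.4, 3749 and 4291 CPM at GV and 7093, 5591 and 5625 CPM at MII, with no overlap (0.75 ± 0.19 SE); on the ERCC scale it fell, with -1.03 ± 0.38 SE against a median of -1.72 for all genes, and 48.8% was left. Cnot7, a catalytic subunit of CCR4-NOT, went from 581, 442 and 671 CPM to 1547, 1169 and 1368 CPM (1.42 ± 0.21 SE). The other deadenylases Cnot6 (1.14), Cnot6l (1.16) and Cnot8 (1.11) were higher, while the scaffold Cnot1 (-0.93) and the subunits Cnot9 (-1.18) and Cnot10 (-2.42) were lower. The decapping enzyme Dcp2 (0.93) and the exonuclease Xrn1 (1.53) were higher.

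Among 43 genes of stored messages and translational control, 14 were higher and 10 lower. These shares were 32.6% and 23.3%, beside 30.1% and 33.8% of all genes. Zar1l and other factors that hold stored messages in the GV oocyte were among the lower members: Zar1l at -4.40, Ybx2 at -3.83, Patl2 at -2.05, Zar1 at -1.26 and Cpeb1, the protein that binds the U-rich element, at -1.27. Cpeb4 (1.73), a relative of Cpeb1, Dazl (0.83), an activator of translation, the poly(A) polymerase Tent2 (1.38) and the Y-box protein Ybx1 (1.55) were higher. In the small RNA list 9 of 16 were lower and 4 higher, with Gtsf1 at -3.37 and Tarbp2, a partner of Dicer, at -4.07, and Dicer1 itself at 0.77.

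Of the remaining lists, nucleoporins had 16 of 27 higher and 4 lower (median 0.69), and histones and their chaperones 10 of 20 higher and 4 lower. The all-gene shares were 30.1% higher and 33.8% lower. Slbp, which binds histone messages, went from 1764, 1656 and 1722 CPM to 6424, 3231 and 4118 CPM (1.59 ± 0.26 SE). The cAMP pathway, which holds the GV arrest, had 8 of 14 higher and 1 lower, and Pde3a, the phosphodiesterase whose activity ends that arrest, was at 0.98. Of 21 genes of glycolysis and lactate use, 8 were lower and 3 higher. Ldhb, a lactate dehydrogenase that ranks among the most abundant messages of the GV oocyte, went from 7736, 8690.3 and 7005 CPM to 1704, 1715 and 1421 CPM (-2.13 ± 0.18 SE). Lists close to the all-gene shares were the ubiquitin conjugating enzymes (9 of 30 higher, 10 lower), the VPS34 complexes and autophagy core (10 of 31 higher, 11 lower) and, with fewer lower, the spliceosome (14 of 42 higher, 11 lower). Pik3c3, floxed but not deleted in these mice, had a relative change of -0.74 ± 0.29 SE. Apart from the ubiquitin list (0.04 with TMM factors, -0.09 without), no list median changed sign without TMM factors. On the ERCC scale the medians of all lists with 10 or more tested genes were below 0, leaving aside the cumulus and granulosa markers, of which 7 were not tested.

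**Figure D4:**
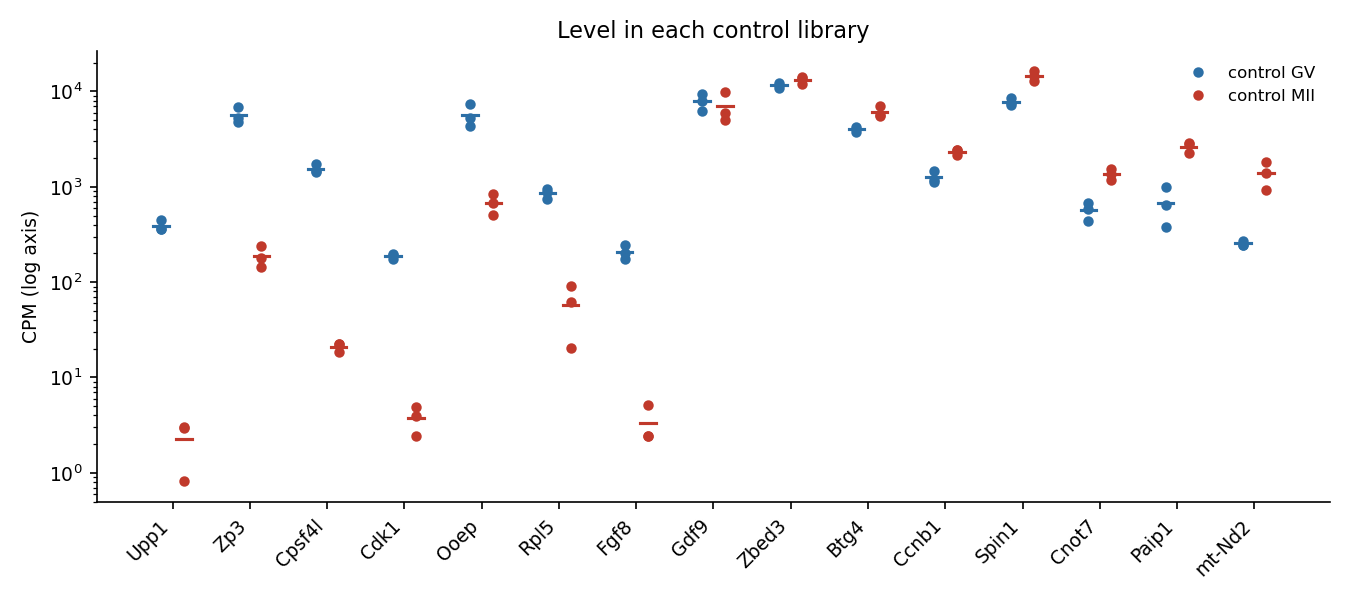
CPM (log axis) of 15 genes in the 3 control GV (blue) and 3 control MII (red) libraries, with horizontal bars at the means. From left to right the genes go from deep loss (Upp1, Zp3, Cpsf4l, Cdk1) through genes whose stages overlap (Gdf9, Zbed3) to genes whose MII libraries all lie above the GV libraries (Btg4, Ccnb1, Spin1, Cnot7, Paip1, mt-Nd2).

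Among the most abundant transcripts of MII oocytes were 4 that were higher relative to gene totals. Spin1, a histone reader, stood at 8471, 7226 and 7662 CPM at GV and 16299.7, 12939 and 14453 CPM at MII (1.06 ± 0.19 SE). Tcl1, a coactivator of the kinase AKT, went from 3714, 2889 and 3807 CPM to 10078, 5950.3 and 6859 CPM (1.30 ± 0.26 SE). H1f8, the oocyte linker histone, and Bcl2l10, a BCL2 family member, had smaller relative changes of 0.53 and 0.58, and 42.1% and 42.3% of their ERCC-scaled levels were left. Both calls were near the threshold. Without MII replicate 1 the change of H1f8 was 0.28 (adjusted p = 0.151) and that of Bcl2l10 0.33 (adjusted p = 0.132, edgeR), and neither passed. H1f8 also lost the call without GV replicate 1 or 3 and without the cKO libraries, TMM factors or the filter on low counts (adjusted p from 0.0543 to 0.0846), and Bcl2l10 without GV replicate 1 (0.0933) or the filter (0.0538).

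Transcripts called kept on the ERCC scale were few, and 61 of the 74 were also called higher. The rule is strict: with a median SE of 0.492, it left 6553 genes unplaced. By value alone, and with the summed ERCC counts, 2238 of 7738 genes at 10 CPM or more at GV had over 50% of their level left. Of the 74, 64 had under 10 CPM at GV, and 10 had 10 CPM or more. These 10 were Paip1, mt-Nd2, Gtf2a1, Ptp4a1, Septin2, Rnft1, Bnip3, Plag1, Myef2 and Malat1, and all of them were named after their values were seen except the first 3, which had over 100 CPM. Their calls and the values below rest on the summed ERCC counts. With the ERCC median ratio the median of all genes was -2.65 in place of -1.72, and 18 genes were kept in place of 74. Paip1, a partner of the poly(A)-binding protein in translation, stood at 43.4, 26.7 and 55.4 counts per 10000 ERCC counts in GV libraries and 41.9, 66.2 and 67.8 in MII libraries. These ranges overlapped, and the ERCC-scaled log2 change was 0.49 ± 0.38 SE, above the 2-fold line with adjusted p = 0.012. Its relative change was 2.13 ± 0.31 SE. Gtf2a1, a subunit of the general transcription factor TFIIA, had 0.40 ± 0.39 SE on the ERCC scale (adjusted p against the 2-fold line 0.035) and mt-Nd2 0.78 ± 0.39 SE (0.00085). Among the rest, Ptp4a1, a phosphatase, had 0.62 ± 0.41 SE, Septin2, a filament protein of the cell cortex, 0.65 ± 0.41 SE, Bnip3, a receptor for the removal of mitochondria, 0.52 ± 0.44 SE, and Malat1, a nuclear long noncoding RNA, 0.60 ± 0.44 SE.

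The 65 genes that were higher on the ERCC scale (42 without GV replicate 1, 41 without MII replicate 2) all had under 10 CPM at GV, and those with the largest changes included genes of the cumulus cells that surround the ovulated egg. Tnfaip6, which builds the expanded cumulus matrix, had no count at GV and 31.1, 90.6 and 75.2 CPM at MII, at least 250.3-fold higher (against a floor of 3 counts over the GV group). Ptx3, another matrix protein, was at least 38.8-fold higher. Its relative call was lost without MII replicate 1 (adjusted p = 0.0623) or the filter on low counts (adjusted p = 0.149). Lox, which cross-links collagen, was at least 99.7-fold higher and Akr1c18, a progesterone-degrading enzyme, at least 74-fold. Spp1, the secreted protein osteopontin, went from 1.69, 1.06 and 0.852 CPM to 892, 1263 and 263 CPM (9.55 ± 0.83 SE). Nupr1 (6.62), a stress-induced chromatin protein, Timp1 (5.88), a protease inhibitor, Ier3 (5.42) and Skil (4.72), an inhibitor of TGF-beta signalling, were also in this group. Slc40a1, the iron exporter, had 1 count at GV and a MII to GV ratio of 129.9 (95% counting interval 22.9 to 5171); Sfrp4 and Piezo2 had ratios of 59 (95% counting interval 19.8 to 289) and 57.4 (95% counting interval 15.5 to 480.2).

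Cumulus and granulosa markers are given beside this group, which itself holds Tnfaip6, Ptx3, Ptgs2 and Vcan of that list. Of 24 markers, 19 to 22 had a count in each GV library and 19 to 20 in each MII library. The filter on low counts kept 17 of the 24, some of them only through their MII counts, so that no count of calls is given for this list. The summed level of all 24 was 443.5 to 545.9 CPM at GV and 1294 to 1592 CPM at MII, most of it from Serpine2; without Serpine2 it was 124 to 151.8 CPM and 238.3 to 470 CPM. Ptx3 and Tnfaip6 were at 0 in all GV libraries, and the granulosa markers Amh, Wt1 and Amhr2 at 0 in all MII libraries. In such bulk libraries more cells of a type and more RNA per cell cannot be told apart, and the part of attached cumulus cells in these values was not tested. Of 12 blood and immune markers, the haemoglobin genes Hbb-bs and Hbb-bt and the leukocyte genes Ptprc, Cd74 and Tyrobp were at 0 in all 6 libraries. Cd52 had 0 CPM at GV and 0.273, 13 and 11.1 CPM at MII, and C1qb 66.6, 78.6 and 47.7 CPM and 4.63, 4.23 and 7.6 CPM.

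Transcripts that were lower differed in their make-up from those that were higher. A coding transcript was found in GENCODE for 10215 of the 11607 genes (88.0%), and the following values describe genes, with no test. The median 3′ UTR was 1354 bases among genes higher at MII, 1173 among those without a call and 555 among those lower. The GC content of the 3′ UTR had medians of 39.5%, 43.4% and 47.6% in the same order, and that of the coding sequence 48.4%, 51.7% and 54.5%. Across genes, Spearman's rho with the relative change was -0.426 for 3′ UTR GC content (10096 genes), -0.381 for coding GC content, 0.281 for 3′ UTR length and 0.19 for coding length (10215 genes); genes share libraries and amplification and are not independent replicates. In the 2046 genes with the shortest 3′ UTRs (up to 297 bases) the median change was -1.11, and it was -0.90 without the ribosomal and respiratory lists. Cytosolic ribosomal protein genes had a median 3′ UTR of 84 bases, and those of oxidative phosphorylation 182.

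The U-rich element shown at the start was found on the sense strand in the last 100 bases of 20.7% of 9624 3′ UTRs of at least that length. It stood in 955 of 3087 genes that were higher (30.9%), 737 of 3492 without a call (21.1%) and 303 of 3045 that were lower (9.95%). The median relative change was 0.63 with it and -0.14 without it, and with 1, 2 or at least 3 copies it was 0.60, 0.71 and 0.99. A match is 1 spelling or the other, and each gave the same order alone: TTTTAT was in 23.5% of higher and 7.75% of lower genes, TTTTAAT in 9.59% and 2.66%. Other A- and U-rich words were also more frequent in higher genes. ATAAAA, the reverse complement of the first spelling, which can overlap the cleavage signal, was in 36.0% of higher and 26.0% of lower genes, AATAAA in 73.4% and 59.0%, and TTTTTT in 18.2% and 8.97%.

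Because the element is U-rich, it was also counted within 5 equal groups of genes by 3′ UTR GC content. In the group with least GC (up to 37.1%), genes with the element had a median change of 0.93 and those without it 0.71. The gap was wider at high GC: in the group with most GC (over 50.3%) the medians were -0.07 with the element (233 genes) and -1.45 without it (1692 genes). The cKO libraries gave -0.51 and -1.71 in that group and 0.97 and 0.78 in the group with least GC. A match to these letters is not shown to be a working site, and the motif was chosen after the changes had been seen.

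**Figure D5:**
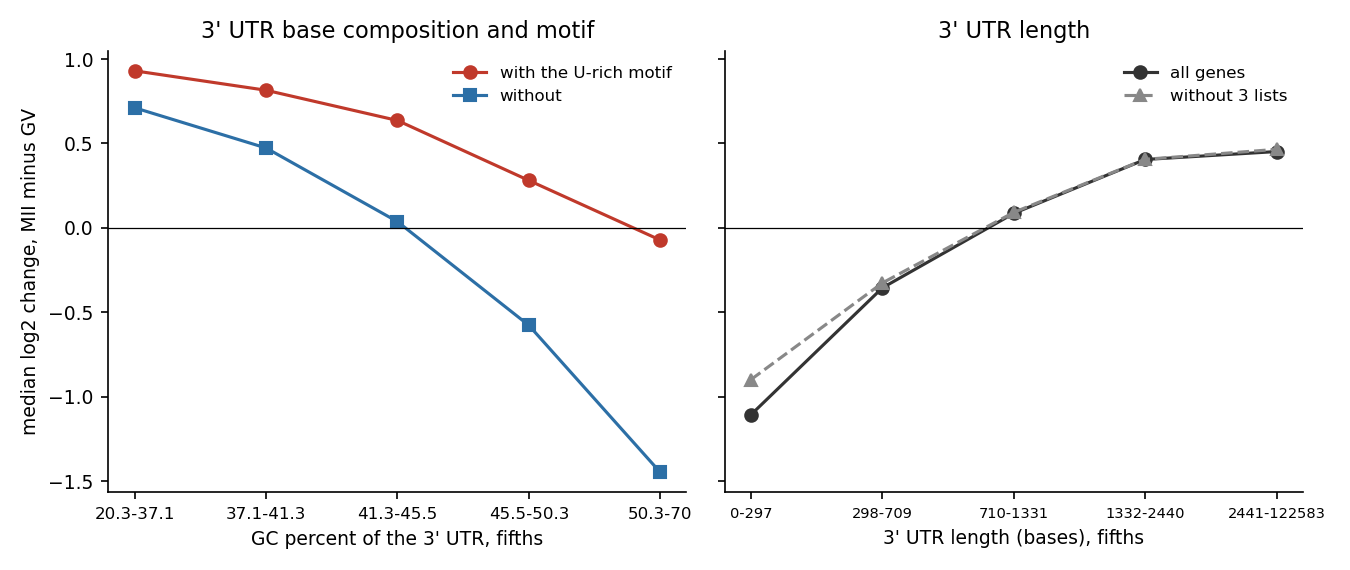
Left, median log2 change from GV to MII (relative to gene totals) in 5 equal groups by 3′ UTR GC content, for genes with (red) and without (blue) the U-rich element in the last 100 bases. Right, the same median in 5 equal groups by 3′ UTR length for all genes (black) and without the ribosomal and oxidative phosphorylation lists (grey). The lowest median of each panel is that of the group with most GC and no element, at -1.45, and that of the group with the shortest 3′ UTRs, at -1.11 for all genes.

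The cKO oocytes, from separate libraries, shared most of these changes. Of 7418 genes called in control oocytes, 7339 (98.9%) had a change of the same sign in cKO oocytes and 6366 (85.8%) were also called there, where 7372 genes (63.5%) were called. For Upp1, Cdk1, Zp3, Ccnb1, Cnot7 and mt-Nd2 the cKO log2 changes were -7.24, -4.84, -4.71, 0.92, 1.62 and 2.48, beside -7.27, -5.50, -4.78, 1.05, 1.42 and 2.60 in control oocytes. The test of the difference between genotypes called 1 of 11607 genes (0.00862%), and 608 (5.24%) had an unadjusted p under 0.05. DESeq2 called 3, the fit with no filter on low counts 18, and fits with 1 control library left out 0 to 3, with 0 without MII replicate 2.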

How the data were processed

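The table the authors deposited holds whole-number read counts per gene, not normalized, with 55291 genes and 92 ERCC rows. The submitters' processing notes name fastp, HISAT2, featureCounts and mm10 and give no versions. Annotation, strand setting and handling of multiply mapped reads are not given in the sources used.  Spike-ins were added for normalization, per the labels' protocols, which give no amount; equal amounts per library were assumed. Column letters C and T were read as control and Cre arm, although sample titles use neither; 6 further columns match no label and were not used.

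Genes passing filterByExpr (11607) were fitted with edgeR 4.0.16 (R 4.3.3; robust quasi-likelihood, Benjamini-Hochberg over all genes, threshold 0.05) on 12 GV and MII libraries with 4 group means. Relative changes used gene totals with TMM factors; ERCC-scaled changes used summed ERCC counts as library size. Kept and lost used one-sided tests of the log2 change against -1. SE is the log2 change over the root of F. CPM values carry no TMM factors. The scripts were tested on simulated data. For kept and lost transcripts the simulated library sizes were known to the fit, so the error of the ERCC scaling was not tested. Intervals and floors of 3 counts cover counting error only, as reads carry no molecular identifiers.

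Named genes were the 12 highest and 12 lowest changes (at least 10 CPM in the higher stage, no overlap), the ERCC-scaled highest, the 2 most abundant and the extreme members of each list, the 6 largest shares of counts per stage, and kept genes of at least 100 CPM; other list members were picked after their values were seen. Members and lists were chosen with earlier results of these data known. Gene symbols were matched to GENCODE vM21, 53292 directly and 406 through RefSeq synonyms. Alternatives were DESeq2 1.42.0, other scalings and filters, a replicate block, other folds and leaving out each library. Some genes that the naming rule or the lists would have named are not reported here.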

Additional observations from a re-analysis of the deposited data

Results flagged for a closer look

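The change from GV to MII differed between genotypes for 1 gene, Spopl, which encodes a relative of the cullin-3 adaptor SPOP. The test of the difference (control minus cKO) gave -3.3204 on the log2 scale (SE 0.48, adjusted p = 0.0168, edgeR, n = 3 per group). In control oocytes Spopl stood at 25.7, 22.4 and 54.7 CPM at GV and 15.3, 19 and 26.9 CPM at MII, with a relative change of -0.63 ± 0.31 SE that did not pass the threshold (adjusted p = 0.081). In cKO oocytes its relative change was 2.69, with 3.11, 4.68 and 4 CPM at GV and 24.5, 24.5 and 21 CPM at MII. Without MII replicate 2 of the control the test called no gene.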

How the results depend on the processing

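The counts of genes higher and lower on the relative scale and lower on the ERCC scale stayed within 1.5 times under every alternative tried. Leaving out 1 control library at a time gave 3062 to 3283 higher and 3608 to 3839 lower genes on the relative scale, 41 to 74 higher on the ERCC scale, 21 to 91 kept and 0 to 3 called for the difference between genotypes. That difference called 18 genes with no filter on low counts and 3 with DESeq2. Genes higher on the ERCC scale numbered 40 with DESeq2 and 32 with the ERCC median ratio. Kept genes numbered 41 with DESeq2, 44 without the 5 most abundant ERCC RNAs, 18 with the ERCC median ratio, 46 at 1.5-fold and 3137 at 4-fold; lost genes numbered 7700 with the ERCC median ratio and 2796 at 4-fold. Looser and stricter folds move these counts by construction; for the other settings the cause was not tested. The ERCC median ratio moved the gene to ERCC difference from -1.561 to -2.444 and the median of all genes from -1.72 to -2.65, and leaving out the 5 most abundant ERCC RNAs moved the latter to -2.11. Without TMM factors the median of all genes moved from 0.0056 to -0.131. Over the named genes and these settings, 1878 relative values stayed on their side of the threshold, 67 lost the call and 6 gained it. None reversed, meaning a change of sign with a call in at least 1 of the 2 fits. Changes of sign without a call in either fit were not counted as reversed. On the ERCC scale 1 reversed: Kif11, at -0.1433 without MII replicate 2 and up to 2.611 with another library left out.

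Replicate numbers did not pair the stages: same-numbered libraries had correlations of -0.1, -0.0141 and 0.0276. With the replicate block 3393 genes were higher and 3879 lower, 97.2% of the relative calls were shared, 59 were higher and 7664 lower on the ERCC scale, 55 were kept and 4653 lost, and 1 differed between genotypes. Not every library correlated best with its own number. Of 123 genes under 1 CPM at GV 91.1% were called higher and 0 lower, of 3746 genes at 1 to 10 CPM 19.2% and 27.3%, and of 1811 genes at 100 to 1000 CPM 40.6% and 38.9%; the part of depth in these shares was not tested, and genes under 1 CPM at GV could pass the filter through their MII counts.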

Other observations

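Classes of transcript differed in their shares. Among 10220 protein-coding genes 31.4% were higher and 33.2% lower at MII relative to gene totals. Of 455 genes annotated as long intergenic noncoding RNAs, 25.5% were higher and 36.9% lower. Of 143 annotated as antisense, 13.3% were higher and 47.6% lower, with a median change of -0.88; without a stated strand setting their reads cannot be told from those of the overlapping gene. Of 533 pseudogenes 19.1% were higher and 36.8% lower.

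The most abundant ribosomal RNA gene model held 4.4% ± 1.95 (SD, n = 3) of gene counts at GV and 1.96% ± 0.665 at MII. Leaving out such models and the mitochondrial genes gave 3486 higher and 3923 lower genes.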
